A study of Mus musculus with 2 samples.

Results

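Immature B cells are the stage of bone marrow B-cell development at which a complete IgM receptor first reaches the cell surface, before the cell leaves for the blood and spleen and begins to make IgD and CD23. The group described here was drawn from a single-cell RNA profile of mouse bone marrow by summed transcript levels, and it held 334 of 10610 cells, 215 in the control library and 119 in the stroke library. Levels are unique molecular identifiers (UMIs, counted mRNA molecules) per 10000 UMIs. A cell was placed in the B lineage when Cd79a+Cd79b was at least 15, S100a8+S100a9 under 400, C1qa+C1qb+C1qc under 20 and Siglech+Ccr9+Cox6a2 under 20. It was taken as immature when Vpreb1+Igll1+Dntt was under 20, Cd74+H2-Aa+H2-Ab1 (class II) at least 30, and Ighd+Fcer2a+Cr2 under 15. The members were thus chosen by these measured sums, which are given below as a description only.

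The series, titled for a role of CD177+ neutrophils after injury of the central nervous system, compared marrow of control mice and mice after stroke. Marrow was flushed from tibias and femurs of wild-type males, 8 to 10 weeks old. The labels describe the control library (5212 cells, median 3344 UMIs) no further, and the other library followed middle cerebral artery occlusion (MCAO, 5398 cells, median 4952 UMIs), which blocks blood flow to part of the brain and so models stroke. Red cells were lysed, all remaining marrow cells were used, and the sources used here do not give how many mice went into each library, how long after occlusion they were taken or what was done to controls. Each condition is 1 library, so no test between conditions was possible and no difference has a replicate check. Brackets hold 95% intervals that cover counting error only.

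As background, a B-cell precursor rearranges its heavy chain gene with the Rag1 and Rag2 recombinase, pairs the product with a surrogate light chain, divides in response to interleukin 7 and then, as a resting cell, rearranges a kappa or lambda light chain gene. The resulting IgM receptor is tested against self antigen, and strongly reactive cells keep or restart Rag1 and Rag2 expression to replace the light chain. Cells held in the marrow carry the retention receptor Cxcr4, and cells that leave gain S1pr1 and Cxcr5, which serve egress and entry into lymphoid organs.

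A pair of neighbouring groups was drawn by the same sums. The class II-low group had a class II sum under 30 at any Ighd+Fcer2a+Cr2 sum, and it held 475 control and 128 MCAO cells. Its Rag1 level was 8.92 and 7.96 and its Il7r level 12.4 and 10.7, and 10.9% and 13.3% of its cells carried at least 3 UMIs of Mki67, Top2a, Birc5 and Cdk1. The Ighd-rich group failed only the Ighd+Fcer2a+Cr2 bound and held 244 and 265 cells. A further 19 and 5 B-lineage cells were rich in surrogate light chain genes.

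The members lay on a continuum, as the plot of the defining sums shows, and no gap marked either bound. Of the 215 control and 119 MCAO members, 88 and 44 had no UMI of Ighd, Fcer2a or Cr2, while 47 and 26 had a sum from 10 to just under 15. Just outside, 22 and 26 Ighd-rich cells had a sum from 15 to 20. At the class II bound, 36 and 10 members had a sum from 30 to 40, and 55 and 20 class II-low cells had one from 20 to 30. The median class II sum was 80.4 in control and 108 in MCAO members, so the MCAO members sat further along the class II axis. At the median depth of 2083 and 2383 UMIs, the Ighd bound is a matter of a few molecules. When every cell was thinned to 1000 UMIs and the rule applied again, 77.3% of control and 80.7% of MCAO members stayed in the group, and 8.09% and 7.55% of Ighd-rich cells entered it.

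**Figure D1:**
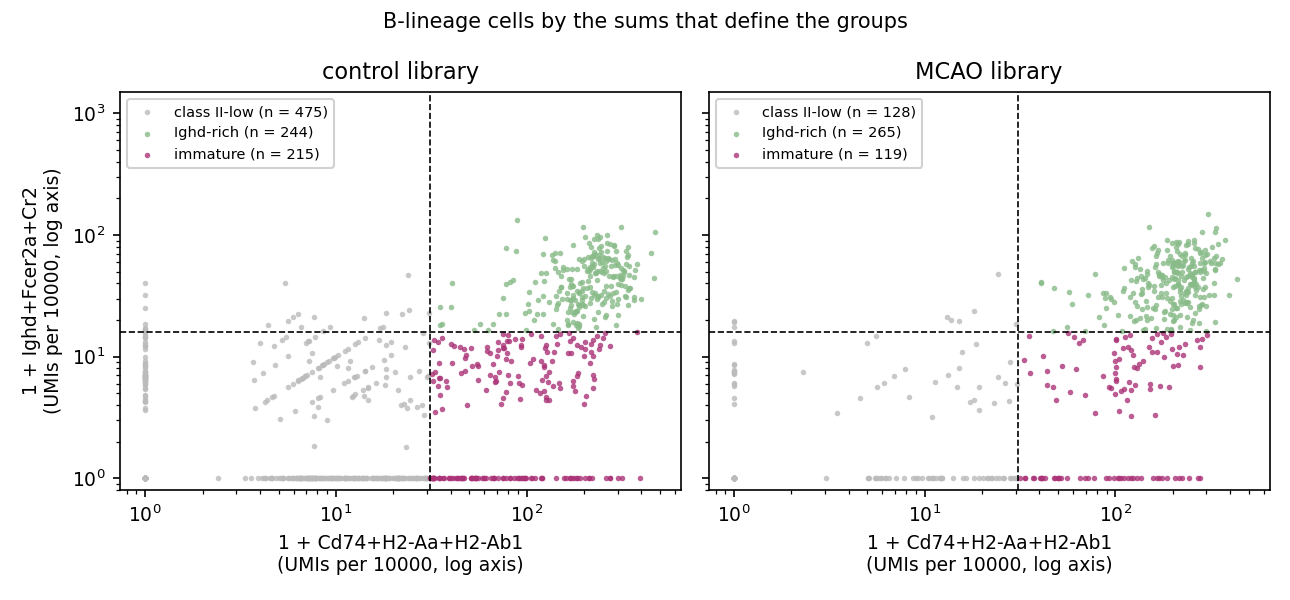
Each point is 1 B-lineage cell, placed by its class II sum (x axis) and its Ighd+Fcer2a+Cr2 sum (y axis), both in UMIs per 10000 plus 1 on log axes, with the rule's bounds dashed. The immature cells (purple) fill the space between the class II-low cells (grey) and the Ighd-rich cells (green) with no gap at either bound.

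Members were sequenced to similar depth, with 511341 UMIs and a median of 2083 per cell in the control library against 323615 and 2383 in the MCAO library. None of them was marked as a doublet by a simulated-doublet score. Cells were named in the table by running identifiers, of which 5120 occurred in both libraries. Such names cannot show shared barcodes, and the barcodes themselves were not analysed here. Free RNA from other cells was present in both libraries. The 6 neutrophil markers summed to 138 in control and 156 in MCAO members, against 958 and 993 in the cells outside the B lineage, and erythroid markers summed to 10.5 and 18.2. The neutrophil marker sum of single members ran from 50.1 to 365 in the control library and from 89.9 to 254 in the MCAO library. S100a8 and S100a9 are among the 6, and the rule kept their sum under 400 in members. Selection can thus lower the members' values against those outside. The 5 T-cell markers summed to 0.156 in control and 0.0309 in MCAO members, with Cd3d and Cd3g at 0 in both and 3 and 1 of the 5 detected. The 5 plasma cell markers summed to 1.43 and 1.48, with Prdm1 and Tnfrsf17 at 0 in both and 3 and 2 detected.

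The marker genes matched the label. Ms4a1, which encodes the B-cell surface protein CD20, stood at 32.1 in control and 33.3 in MCAO members, above both neighbours (5.17 and 7.31 in class II-low cells, 18.9 and 16.1 in Ighd-rich cells). Spib, a transcription factor of the B lineage, stood at 22.1 and 19.7, Ly6d, a surface protein of early B cells, at 22.8 and 20.5, and Tnfrsf13c, the receptor for the survival factor BAFF, at 11.6 and 11.0. Of the 6 B-cell markers outside the rule, only 2 were at least 1.5-fold higher than in class II-low cells in both libraries, and none was lower. Outside the B lineage, Ms4a1 was at 0.422 and 0.229. None of the 8 B-cell markers differed by 1.5-fold between the libraries, though Cd79a and Cd79b among them were used by the rule. The ratio of Ms4a1 was 1.04 [0.958 to 1.12]. Cd93, a surface protein of newly formed B cells, lay between the neighbours in level, at 1.96 and 1.17 against 5.81 and 6.79 in class II-low and 0.432 and 0.333 in Ighd-rich cells.

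The share of immature cells among all cells was smaller in the MCAO library, but their share among B-lineage cells was nearly the same. Of all control cells 4.13% [3.601 to 4.70] were members, and of all MCAO cells 2.20% [1.83 to 2.63] were. Among the 953 control and 517 MCAO B-lineage cells the group took 22.6% [19.9 to 25.3] and 23.02% [19.5 to 26.9]. The groups on either side differed between the libraries in opposite directions. The class II-low share was 49.8% [46.6 to 53.1] in the control and 24.8% [21.1 to 28.7] in the MCAO B lineage, and the Ighd-rich share was 25.6% [22.9 to 28.5] and 51.3% [46.9 to 55.6]. The smaller share of the library goes with a smaller B lineage, which was 18.3% of control and 9.58% of MCAO cells. Thinned to 1000 UMIs before the rule was applied, members were 26.9% and 26.1% of B-lineage cells. Red cell lysis, the loading of unsorted marrow and the depth gap between the libraries can each set such shares, and their part was not tested.

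**Figure D2:**
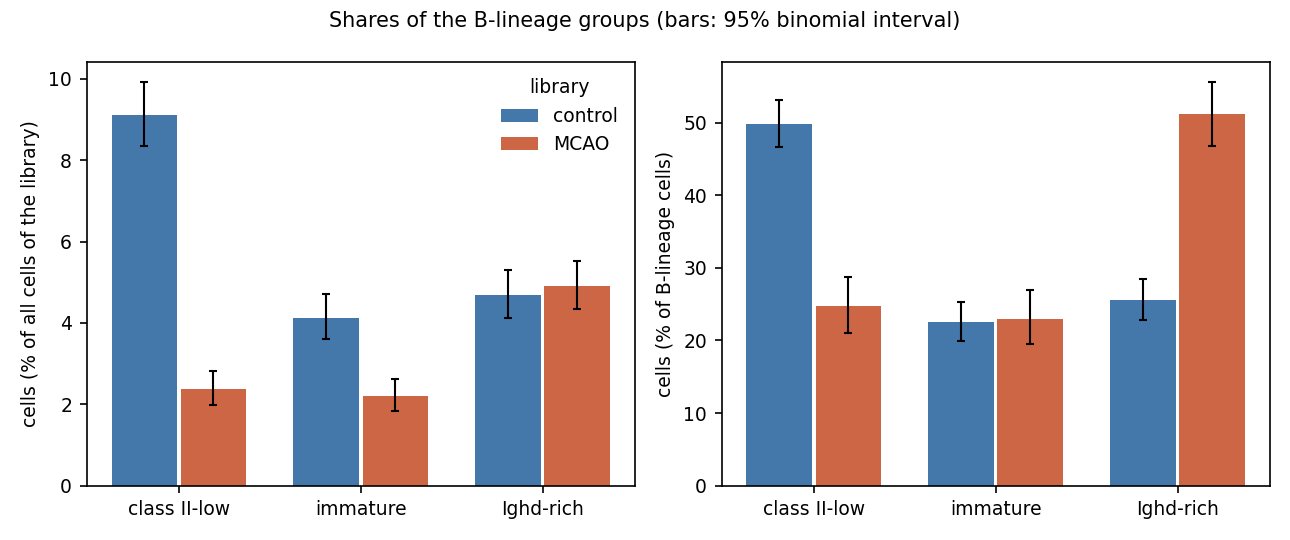
Bars give each group as a percentage of all cells of a library (left) and of its B-lineage cells (right), for the control (blue) and MCAO (orange) library, with 95% binomial intervals. The immature group is smaller in the MCAO library at left (2.20% against 4.13%) and alike at right (23.02% against 22.6%).

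The promoters of Rag1 and Vpreb3 are printed because both genes belong to the preceding stage and both were lower in MCAO members. Rag1 lies on chromosome 2 (101638282 to 101649501, minus strand) and Vpreb3, a precursor-stage partner of the receptor, on chromosome 10 (75943057 to 75949657, plus strand), in mm10. The sequences are the 250 bases before the gene's start, from RefSeq (GRCm38.p6), chr2:101649533-101649782 (minus strand) and chr10:75948050-75948299 (plus strand). The RefSeq start used for Vpreb3 lies inside the longer GENCODE span given above, so its stretch precedes the RefSeq start and not the GENCODE one. Capitals mark, in Rag1, the E-box letters CAGGTG, a class of site bound by the E proteins that Tcf3 encodes, and in Vpreb3 the octamer ATGCAAAT read on the other strand, the class of site bound by the Pou2f2 family.
Rag1: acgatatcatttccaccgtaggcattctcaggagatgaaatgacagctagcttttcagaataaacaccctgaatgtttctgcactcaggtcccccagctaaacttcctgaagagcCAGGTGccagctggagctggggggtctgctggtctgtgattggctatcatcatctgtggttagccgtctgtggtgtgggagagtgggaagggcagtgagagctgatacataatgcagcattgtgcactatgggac
Vpreb3: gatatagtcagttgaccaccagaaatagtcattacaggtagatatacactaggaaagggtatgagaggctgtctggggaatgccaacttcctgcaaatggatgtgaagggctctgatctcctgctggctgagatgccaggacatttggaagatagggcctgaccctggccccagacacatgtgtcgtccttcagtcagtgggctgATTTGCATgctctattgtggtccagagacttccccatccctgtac
Both motifs were searched on both strands of the 250 bases before the start of 32851 promoters. The octamer was found in 1.60% of them and the E-box in 17.2%. A match describes the letters and is not evidence of binding.

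Between the libraries, 3519 genes had at least 50 UMIs over both groups of members and a UMI in at least 2% of the members of 1 library. Of these, 238 (6.76%) were at least 1.5-fold higher in the MCAO library and 348 (9.89%) at least 1.5-fold lower, and the median log2 ratio was -0.02. In 176 and 240 of them the counting interval of the ratio did not include 1. These percentages are the background against which the lists below are read.

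Genes of the precursor stage were mostly lower in MCAO members. Of the 18 genes of the surrogate light chain and precursor list, 7 passed the count filter, 5 were lower and 1 was higher, with a median log2 ratio of -0.73. Rag1 gave 54 UMIs in control members and 2 in MCAO members, a level of 1.06 against 0.0618 and a ratio of 0.0585 [0.00691 to 0.222]. Il7r, the interleukin 7 receptor, stood at 1.53 against 0.309, a ratio of 0.203 [0.0935 to 0.393]. Rag2 gave 11 UMIs and 0, which is at least 2.32-fold lower against a floor of 3 UMIs over the group. The difference was found in few cells: 32 of 215 control members (14.9% [10.4 to 20.4]) and 3 of 119 MCAO members (2.52% [0.523 to 7.19]) carried a UMI of Rag1, Rag2 or Il7r. In class II-low cells Rag1 was 0.892 [0.769 to 1.03] times the control level and 58.3% and 58.6% of cells carried a UMI of it.

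Free RNA may bear on the Rag1 counts. After thinning to 1000 UMIs, 5.21% [2.63 to 9.14] of control members and 2.77% [2.29 to 3.32] of control cells outside the B lineage had a Rag1 UMI. In the MCAO library the shares were 0.840% [0.0213 to 4.59] and 0.577% [0.384 to 0.834]. In each library the interval of the members included the share outside the B lineage. For 6 B-cell precursor markers, however, single cells outside reached sums of 206 (control) and 161 (MCAO), with medians of 0. Cells outside may thus include true precursors, so their share is not free RNA alone. The overlap therefore cannot show whether the members' Rag1 UMIs were free RNA. Outside the B lineage Rag1 was lower as well, at a ratio of 0.206 [0.173 to 0.244] and levels of 0.254 and 0.0524, and Il7r stood there at 0.840 and 0.347. In level, Rag1 in control members was above that outside, with up to 8 UMIs in 1 cell. The part of free RNA in the lower Rag1 and Il7r values was not tested.

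Vpreb3 and Myb were lower too and were found in many more cells. Vpreb3 stood at 19.3 in control and 11.7 in MCAO members, with UMIs in 85.6% and 71.4% of them, a ratio of 0.608 [0.539 to 0.685]. The level outside the B lineage was 2.17 and 0.731, and its part in the difference was not tested. With only members of S100a8+S100a9 under 100 kept, the log2 ratio of Vpreb3 was -0.40, short of 1.5-fold. Myb, a transcription factor of dividing progenitors, stood at 2.89 and 1.24, a ratio of 0.427 [0.293 to 0.609]. Cd93 was lower as well, at 0.600 [0.402 to 0.880] times control. Spn, which encodes the early B-cell surface protein CD43, went the other way at 1.69 [0.992 to 2.87], but its log2 ratio turned to -0.13, -0.66 and -0.41 with S100a8+S100a9 under 100, in cells with 1000 to 3000 UMIs and without cells with a division UMI. Cd24a, a surface protein that declines as B cells mature, stood at 19.6 and 16.2 and did not reach 1.5-fold.

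End-joining genes, which close the breaks made by the recombinase, split. Of 13 genes in the recombination list, 6 passed the filter, 3 were lower and 1 higher. The lower ones were Xrcc6, Lig4 and Rag1, which belongs to the recombinase and is also counted in the precursor list. Xrcc6, a subunit of the Ku complex, stood at 1.08 and 0.247, and Lig4, the ligase of the pathway, at 1.04 and 0.402. Without the members that carried a Rag1, Rag2 or Il7r UMI, Xrcc6 stood at 0.324 and 0.221, a log2 ratio of -0.51 that no longer reached 1.5-fold. Atm, the kinase that senses the breaks, was higher at 0.606 and 1.39. Tifa and Atp1b1, which no list holds and which were among the 12 lowest ratios, also stood lower with each stage. Tifa stood at 11.7 and 8.75 in class II-low cells, 3.11 and 1.17 in members, and 0.805 and 0.383 in Ighd-rich cells, and Atp1b1 at 9.99 and 8.89, 2.03 and 0.525, and 0.550 and 0.466.

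The members with a Rag1, Rag2 or Il7r UMI stood nearer the class II-low group in other genes too. In the control library these 32 cells had a median class II sum of 36.7, against 92.5 in the other 183 members. Their Vpreb3 level was 31.4 against 17.0, their Igkc level 132 against 220, their Ms4a1 level 12.9 against 35.7 and their Cxcr4 level 12.1 against 6.06. Class II and the Rag genes chose or split these cells, so the values describe how the members vary. Left without all such cells (an alternative added once values were known), Cd93 had a log2 ratio of 0.0037, those of Vpreb3 and Myb were -0.66 and -0.35, and Myb no longer reached 1.5-fold.

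Of the B-lineage transcription factors a few were lower. Of 30 genes, 27 passed the filter, 5 were lower and none was at least 1.5-fold higher, and 22 of 27 ratios were below 1, with a median log2 ratio of -0.16. Tcf3, the E protein gene that drives early B-cell genes, stood at 4.28 in control and 2.16 in MCAO members (0.505 [0.380 to 0.664]). Irf4, which acts in light chain rearrangement and later in plasma cells, stood at 1.74 and 0.742 (0.426 [0.260 to 0.675]). Bach2, a repressor that holds the B-cell state, stood at 6.98 and 4.11 (0.589 [0.479 to 0.720]), past the fold under 9 of 12 other settings. Nfkb1 and Runx3 were the other genes past 1.5-fold, and both lost the call under several settings. The core factors were closer: Pax5 stood at 12.1 and 11.2, Ebf1 at 6.73 and 4.82 and Spib at 22.1 and 19.7. In class II-low cells Tcf3 was at 7.12 and 7.17, so the libraries were alike one stage earlier. Outside the B lineage Tcf3 was at 1.02 and 0.717 and Bach2 at 0.847 and 0.320.

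**Figure D3:**
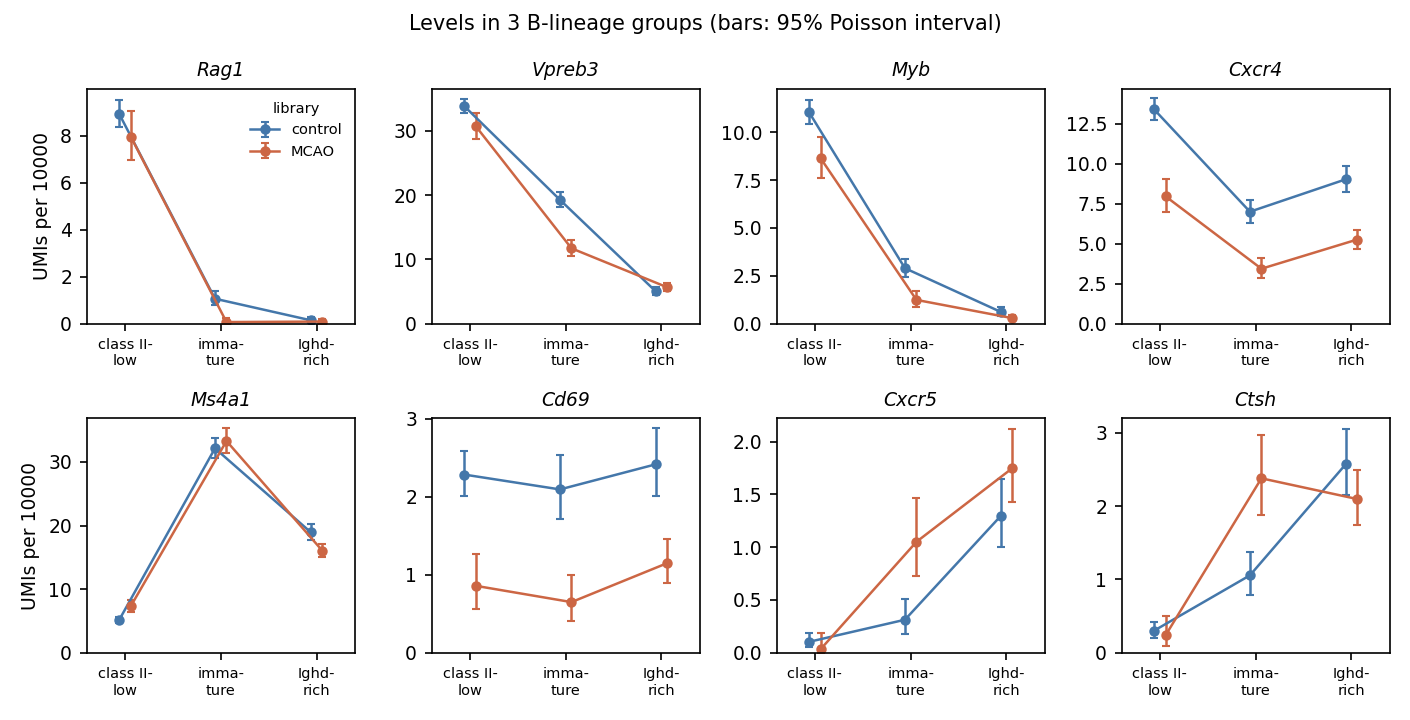
Points give the level of 8 genes (UMIs per 10000, linear axes from 0) in class II-low, immature and Ighd-rich cells of the control (blue) and MCAO (orange) library, with 95% Poisson intervals. Rag1, Vpreb3 and Myb descend across the stages with lower MCAO values in the immature group, Cxcr4 and Cd69 are lower in the MCAO library at each stage, and Cxcr5 and Ctsh are higher in MCAO immature cells.

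Receptor genes were alike in the libraries. Of 16 genes of the B-cell receptor and its co-receptors, all passed the filter, none was 1.5-fold higher and 1 was lower, with a median log2 ratio of 0.04. Cd79a, Cd79b, Ighd and Cr2 are among the 16, and the rule bounded their sums in both libraries, so their likeness was partly set by selection. Ighm, the heavy chain of IgM, stood at 100.03 in control and 98.3 in MCAO members, a ratio of 0.983 [0.940 to 1.03]. Igkc, the kappa light chain, stood at 207 and 221 against 104 and 98.6 in class II-low cells. Cd79b, which carries the receptor's signal into the cell, stood at 24.7 and 25.3, and was used by the rule. The gene past the fold was Cd72, an inhibitory co-receptor, at 2.07 and 1.36, and it stayed past the fold under 7 of 12 other settings. Outside the B lineage Igkc stood at 27.0 and 13.98 and Ighm at 10.1 and 3.36.

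Signalling genes downstream of the receptor differed little. Of 30 genes, 27 passed, 1 was higher and none was lower, with 19 of 27 ratios above 1 and a median log2 ratio of 0.13. Bank1, an adaptor of receptor signalling, was higher at 4.40 and 6.80, a ratio of 1.54 [1.28 to 1.87]. It stood at 0.698 and 1.17 in class II-low and at 8.32 and 9.89 in Ighd-rich cells. Its call was lost under 6 of 12 other settings. Syk, the kinase that starts the signal, stood at 8.78 and 9.61.

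No difference in light chain type between the libraries was detectable at this depth. Cells with at least 10 light chain UMIs, 206 control and 118 MCAO members, were called lambda when Iglc1, Iglc2 and Iglc3 gave over 50% of those UMIs. By this call 18 control members (8.74% [5.26 to 13.5]) and 10 MCAO members (8.47% [4.14 to 15.03]) were lambda. Most members lay at either end of the range, and 7.28% and 3.39% had a lambda part between 30% and 90%. In class II-low cells the intervals did not overlap, at 13.9% [10.6 to 17.9] and 34.6% [25.6 to 44.6], and Ighd-rich cells stood at 5.31% [2.77 to 9.09] and 2.67% [1.08 to 5.43]. Levels of Iglc1, Iglc2 and Iglc3 were 9.76, 11.8 and 10.3 in control members and 9.42, 13.5 and 10.7 in MCAO members. These 3 constant genes lie on chromosome 16 and are near-identical in part, so their sum is the safer value.

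**Figure D4:**
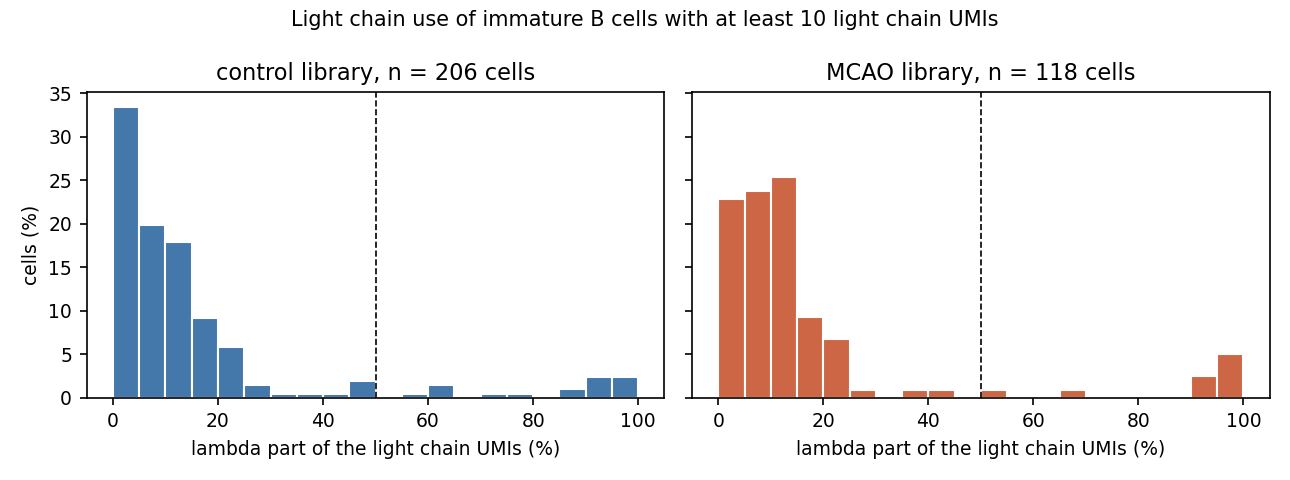
Histograms give the percentage of immature cells (y axis) by the lambda part of their light chain UMIs in percent (x axis), for 206 control (left) and 118 MCAO (right) cells, with the 50% bound dashed. In both libraries most cells lie below 30%, and 8.74% and 8.47% lie above 50%.

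Homing genes moved in both directions. Of 24 genes, 20 passed the filter, 3 were higher and 4 lower, with a median log2 ratio of 0.00. Cxcr4, the receptor that holds B cells near CXCL12 in the marrow, stood at 7.001 in control and 3.43 in MCAO members, a ratio of 0.490 [0.392 to 0.608]. Cxcr4 was also lower in class II-low cells (13.4 and 7.96), in Ighd-rich cells (9.03 and 5.26) and outside the B lineage (4.86 and 3.49). Within bins of class II from 30 to 60, 60 to 120 and 120 upward, it stood at 7.69 and 3.36, 6.71 and 2.57, and 6.58 and 4.48, so it was lower in each bin. Not every gene called lower was: Myb stood at 5.57 and 2.32, 2.52 and 1.13, and 0.430 and 0.614 in the same bins, and Cd93 at 3.39 and 1.55, 1.32 and 1.66, and 1.11 and 0.351. In the top bin Myb rested on 7 UMIs in each library, with intervals of [0.173 to 0.886] in control and [0.247 to 1.27] in MCAO members. In the middle bin Cd93 rested on 23 and 22 UMIs, with [0.836 to 1.98] and [1.04 to 2.52]. The intervals overlapped, so neither gene was clearly higher or lower in MCAO members there.

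Cxcr5, the receptor for the follicle chemokine CXCL13, had the highest ratio by the bound of its interval, at 0.313 against 1.05 or 3.36-fold [1.80 to 6.51], with UMIs in 5.58% and 16.8% of members. S1pr4 was higher at 1.86-fold, and S1pr1, which leads cells out of the marrow, stood at 2.13 and 3.15, a ratio of 1.48 [1.12 to 1.96] just short of the fold. Ccr7, Rgs2 and Cd69, which pulls S1pr1 off the surface, were lower. Cd69 stood at 2.09 and 0.649, a ratio of 0.310 [0.184 to 0.498], and like Cxcr4 it was lower in class II-low (2.28 and 0.858) and Ighd-rich cells (2.41 and 1.15).

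Maturation genes were mixed, with 22 of 23 tested, 4 higher and 2 lower. The higher ones included Cxcr5, Cd55 and Bcl2. Cd55, a guard against complement, stood at 1.88 and 3.28. Bcl2, which protects against cell death, stood at 0.763 and 1.39, a ratio of 1.82 [1.16 to 2.87], against 0.151 and 0.137 in class II-low and 1.39 and 1.58 in Ighd-rich cells. Its ratio turned below 1 when only members with S100a8+S100a9 under 100 were kept, which left 31 MCAO cells. Klf2, a driver of egress genes, was alike at 12.9 and 13.1. Of 21 survival and death genes 9 were tested, with Bcl2 higher and Pim1, a survival kinase, lower, a call that 4 other settings ended.

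Of the 12 genes of the class II list 11 were tested, of which 2 were higher and 1 lower, and all 3 of these lay outside the rule. The rule used Cd74, H2-Aa and H2-Ab1, of which Cd74 stood at 68.2 and 68.9, H2-Aa at 17.0 and 23.2 and H2-Ab1 at 16.8 and 21.7. H2-DMa, which loads peptides, stood at 1.43 and 2.60, and its partner H2-DMb1 at 0.919 and 0.494. H2-DMb2 had a higher level than H2-DMb1 and went the way of H2-DMa. It stood at 4.40 and 6.52, a ratio of 1.48 [1.22 to 1.80] short of the fold. How reads were divided between H2-DMb1 and H2-DMb2 was not tested. H2-Eb1, a class II chain not in the rule, stood at 9.70 and 10.9. Of 14 class I genes tested 2 were lower and none was at least 1.5-fold higher, a share near the background of 9.89%. The median log2 ratio was -0.21, 6 of the 14 ratios were above 1, and that of Tapbp, a peptide-loading factor, was 1.33 [1.10 to 1.62]. H2-Q6 stood at 9.60 and 5.65, a ratio of 0.589 [0.494 to 0.699], and H2-Q7 at 4.60 and 2.81. Both lie on chromosome 17 among near-identical copies, and reads may have been divided among them in ways the counts do not show. H2-Q6 was at 8.77 and 6.93 in class II-low and 6.89 and 5.96 in Ighd-rich cells.

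Immediate early genes, which answer receptor and stress signals within minutes, were lower in 5 of 19 tested (of 26) and higher in 2, with a median log2 ratio of -0.40. Nr4a1, a reporter of receptor signalling, stood at 1.11 and 0.309 (0.277 [0.126 to 0.548]). Nfkbid stood at 3.38 and 1.55, past the fold under 10 of 12 other settings, and Jun at 2.52 and 1.14. Egr1 and Egr3 were higher, and Egr3 stood at 0.567 and 1.27, in 7.44% and 10.9% of members. The log2 ratio of Egr1 turned to -0.21 with Ighd+Fcer2a+Cr2 under 10 and to -0.33 without cells with a division UMI, and Egr3 kept its call under 11 of 12 other settings. Nr4a1 and Jun were also lower outside the B lineage, at 0.864 and 0.576 and at 1.71 and 1.14. In Ighd-rich cells Nr4a1 was 0.298 [0.217 to 0.406] and Jun 0.684 [0.489 to 0.956] times control. Egr1 and Egr3 were lower in Ighd-rich cells, at 0.244 [0.146 to 0.392] and 0.528 [0.377 to 0.734] times control. Interferon-response genes were lower in 6 of 23 tested (of 27) and higher in none, with 20 ratios below 1 and a median log2 ratio of -0.34. Rtp4 stood at 3.23 and 1.58 and Rsad2 at 1.21 and 0.525. Rtp4 outside the B lineage was likewise lower, at 3.83 and 2.18. Glucocorticoid-response genes were lower in 1 of 10 tested, which was Cxcr4, and higher in 1, Ddit4.

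Division genes were lower in 6 of 18 tested (of 24), with 17 ratios below 1 and a median log2 ratio of -0.46. Top2a, which untangles replicated DNA, stood at 3.89 and 1.82, past the fold under all 11 other settings run for it. Pcna, the replication clamp, stood at 1.84 and 1.02, but was not past the fold in cells with 1000 to 3000 UMIs or with each cell weighted alike. Mki67, the general division marker, differed less, at 4.05 and 3.37. These counts came from few cells: 22 control members (10.2% [6.52 to 15.1]) and 8 MCAO members (6.72% [2.95 to 12.8]) had at least 3 UMIs of Mki67, Top2a, Birc5 and Cdk1. The intervals of these shares overlapped. Without every cell that had any such UMI, 144 genes were at least 1.5-fold higher and 177 lower, of 1798 tested.

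**Figure D5:**
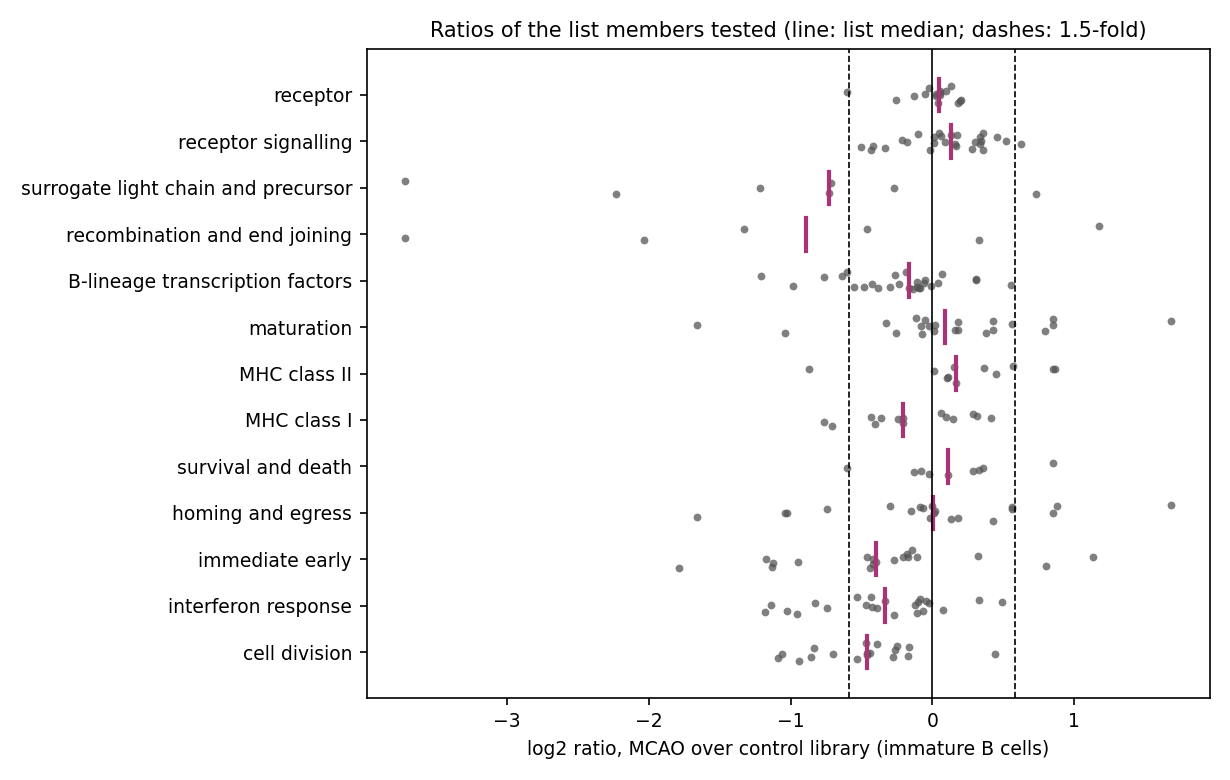
Each point is the log2 ratio (MCAO over control library, x axis) of 1 tested gene in immature cells, by gene list (y axis), with the list median as a purple line and 1.5-fold as dashes. Receptor genes cluster at 0, while the precursor, recombination, immediate early, interferon and division lists have medians from -0.89 to -0.34.

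Other genes named by their intervals include some of unrelated function. Ctsh, a lysosomal protease, stood at 1.06 in control and 2.38 in MCAO members, a ratio of 2.25 [1.57 to 3.25]. In Ighd-rich cells it stood at 2.57 and 2.10, and cells outside the B lineage held 1.501 and 1.57. Its log2 ratio was -0.0103 in the members with S100a8+S100a9 under 100. Fam149b, Axin1, Snhg12, Camkk2, Atp6v1c1, Tmem160, Vps35, Phc3 and Kdm2a were also among the 12 highest, with ratios from 1.95 to 2.97 and at most 127 UMIs in a library. CT010467.1, which is annotated as a ribosomal RNA gene, had the highest level of the 12 lowest ratios, at 14.7 and 4.79. It was lower in both neighbouring groups and outside the B lineage (16.2 and 7.15) too. Actr1a, Atl2 and Tgif1 were the remaining genes of the 12 lowest.

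Against the class II-low group within each library, 359 of 6383 genes (5.62%) were at least 1.5-fold higher in members of both libraries and 572 (8.96%) lower. The groups were cut from the same cells by class II, so these are descriptions, and the folds carry the pseudocount of 0.02. All 8 class II genes tested outside the rule were among the higher ones, led by H2-Eb1 at 18.4-fold in the control and 18.1-fold in the MCAO library. Ly6a, an interferon-inducible surface protein, stood at 6.12 against 0.368 in the control library and at 4.54 against 0.309 in the MCAO library. Gimap3 and Gimap4, GTPases of lymphocytes, stood at 8.62 and 11.3 times the class II-low level in control members and 7.83 and 12.5 times in MCAO members. Receptor signalling genes were higher in 11 of 28 and lower in none. Division genes were lower in 12 of 24, recombination genes in 7 of 9 and precursor genes in 8 of 11. Il2ra, the CD25 marker of the resting precursor, went from 3.73 to 0.567 in control and from 2.68 to 0 in MCAO cells.

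Against the Ighd-rich group, 260 of 5947 genes (4.37%) were at least 1.5-fold higher in members of both libraries and 242 (4.07%) lower. Of the precursor list 6 of 9 genes tested were higher in members and none lower, and of the recombination list none of 7 was called. Myb was 4.64-fold and 4.15-fold higher, Cd93 4.37-fold and 3.38-fold, and Akap12, a scaffold protein, 3.81-fold and 4.11-fold. Dusp10 and Prkca peaked in the immature group, and Dusp10 stood at 0.453, 1.29 and 0.255 in class II-low, immature and Ighd-rich control cells. Of the maturation list 6 of 20 genes tested were lower in members and 2 higher. Ccr6, a homing receptor, stood at 0.0782 against 0.844 in the control library and at 0.0927 against 0.899 in the MCAO library. Rasgrp3, which links the receptor to Ras, stood at 1.08 against 3.45 and 1.33 against 4.01. Of the B-cell markers 4 of 6 outside the rule were higher in members than in Ighd-rich cells in both libraries, namely Ms4a1, Spib, Ly6d and Tnfrsf13c.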

How the data were processed

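The deposited table, made by the authors, holds natural log values of 1 plus UMIs per 10000 for 25943 genes in 10610 cells of 2 libraries. Tools and build, per the submitters' processing notes, included Seurat 4.0.6, UMI-tools, STAR, fastp and mm10. The sources used here do not give settings, annotation, strand handling or cell filters, so antisense partners (of Cxcr5, Myb, Ms4a1, Vpreb3, Xrcc6, Bank1, Iglc1 and Iglc3) cannot be told apart. Column names, Mandarin words for control and stroke, gave the library. Linear values of every cell summed to 10000, and 100% of 19373615 values above 0 came out as whole UMIs within 0.01. No cells were removed. Doublets were scored with scanpy 1.11.5 (Scrublet, 2 simulated per cell), marking 52 control and 57 MCAO cells, which were kept. A level is summed UMIs per 10000 with an exact Poisson interval, a share has a Clopper-Pearson interval, and a ratio an exact conditional binomial one, all at 95%. Log2 ratios used a pseudocount of 0.02, and a call was 1.5-fold. The calculations (Python 3.11.15, scipy 1.17.1) were tested on simulated data. Genes named were the 12 highest and 12 lowest by the bound of the ratio interval nearest 1, the 10 highest and lowest against each neighbouring group, those of the rule, B-cell markers and up to 6 per list (any in the receptor, homing and light chain lists). Ranking left out V, D and J segments, haemoglobins and models named Gm or Rik. One gene that met this rule is not reported here. A few further members of lists were added after their values were seen. Members and lists were chosen with earlier results of these data known. Alternatives covered the rule's bounds, depth, doublets, dividing cells, weighting, denominator, pseudocount and count filter. Positions are from GENCODE M21 (mm10).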

Additional observations from a re-analysis of the deposited data

How the results depend on the processing

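Members as a percentage of all cells and of B-lineage cells were, for control and then MCAO, 3.22 and 1.72, and 17.6 and 18.0, with Ighd+Fcer2a+Cr2 under 10. With class II at least 50 they were 3.09 and 1.78, and 16.9 and 18.6. With Ighd+Fcer2a+Cr2 under 20, MCAO shares were 2.69 and 28.0. Shares of all cells were 2.21 and 0.574 with S100a8+S100a9 under 100 (31 MCAO members), 8.23 and 6.05 in cells with 1000 to 3000 UMIs, and 5.61 and 4.36 without cells with a division UMI. B-lineage shares were 36.1 and 28.4 without cells with a Rag1, Rag2 or Il7r UMI, added after seeing the data, and the control share was 26.9 after thinning. The count of genes higher and lower in MCAO members was 682 and 904 with at least 20 UMIs, 20 and 33 with at least 200, 2110 and 2988 with no filter, and 144 and 177 without division UMIs. Against class II-low cells, higher genes numbered 547, 127 and 876 under these 3 filters, and lower genes 227 with at least 200 UMIs and 1151 with none. Against Ighd-rich cells, higher genes numbered 437, 73 and 737, and lower genes 428, 79 and 837. Fewer genes were tested under stricter filters. Log2 ratios changed sign with S100a8+S100a9 under 100 for Ahnak (-0.80), Bcl2 (-0.77), Ctsh (-0.0103), Mcm3 (0.11), S100a6 (-0.0641), Spn (-0.13) and Usp18 (0.69). In cells with 1000 to 3000 UMIs they did for Birc5 (0.0703), Spn (-0.66) and Stmn1 (0.70), and without division UMIs for Egr1 (-0.33), Spn (-0.41) and Stmn1 (0.26). Egr1 also did with Ighd+Fcer2a+Cr2 under 10 (-0.21), and Cd93 without Rag1, Rag2 or Il7r cells (0.0037). The cause was not tested. Cxcr4, Cxcr5, Cd69, Nr4a1, Tcf3 and Irf4 kept direction and fold under all 12 alternatives run for each, as Rag1 did under 11. No paired analysis was possible because each condition had 1 library.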

Other observations

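Class-switched transcripts were found in some immature B cells of both libraries. Ighg3 gave 8 UMIs in control and 35 in MCAO members, of which 16 came from 1 cell, and cells outside the B lineage held it at 0.0131 and 0.628. Ighg2b was found in 1.40% of control and 15.1% of MCAO members, and in 0.211% and 16.4% of class II-low cells, with levels outside the B lineage of 0.00674 and 3.28. Outside the B lineage 0.188% of control and 33.2% of MCAO cells carried it. Those cells were deeper, with a median of 4044 and 5358 UMIs against 2083 and 2383 in members. Depth raises such shares and these were not thinned, so the shares alone do not place the MCAO members below the cells outside. No MCAO member held more than 3 UMIs of Ighg2b, and 0.410% of control and 16.2% of MCAO Ighd-rich cells carried it. The part of free RNA in these class-switched counts was not tested. Igha gave 55 and 13 UMIs, 14 of the control UMIs in 1 cell, and was found in 17.2% of control and 10.1% of MCAO members. In the deeper cells outside the B lineage the shares were 26.4% and 21.5%. Ighg2c gave 10 UMIs in control members and 0 in MCAO members, and none in any MCAO B-lineage group, against 3084 and 2 UMIs outside the B lineage. Zbtb32, a factor of memory and innate-like B cells, was found in 4 members of each library and in no Ighd-rich cell.

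Members called kappa also carried lambda constant transcripts. In 188 control and 108 MCAO kappa members Iglc2 stood at 9.31 and 11.4, above the 0.508 and 0.285 outside the B lineage. The median lambda part of the light chain UMIs over members was 8.96% and 11.2%. Cytosolic ribosomal protein genes were slightly higher in MCAO members, with 49 of 57 ratios above 1, a median log2 ratio of 0.20 and 4 of 57 at least 1.5-fold higher, beside a background of 6.76%. Mcl1, a survival protein, stood at 12.9 and 16.5, and Hspa5, a chaperone of the secretory pathway, at 9.78 and 5.81.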
